A study of Mus musculus with 4 samples.

Results

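Membrane excitability channels were described here as 9 genes, Kcnj11, Abcc8, Cacna1c, Cacna1d, Scn3a, Scn9a, Scn8a, Trpm5 and Kcnma1, taken by symbol from 32285 genes in single-cell RNA-seq count tables of mouse pancreatic islets. All 9 had reads in all 4 libraries. The libraries came from male mice aged 8 weeks, with 1 library per group. The Cre-positive group carried Tet2(flox/flox)Tet3(flox/flox) with Pdx1 cre, a transgene active in the developing pancreatic epithelium and therefore in the lineage of every islet endocrine cell type, not of beta cells alone. The Cre-negative group carried the same floxed alleles without the transgene. The IHG offspring came from mothers of an intrauterine hyperglycaemia model, and the control offspring from its control mothers. No floxed allele is named for either offspring group. Islets were freed with collagenase, picked by hand, cultured and dissociated with trypsin, and the sources used here do not say how many mice a library holds. With 1 library per group no test between groups was possible.

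Islet endocrine cells are electrically excitable. In a beta cell, glucose metabolism raises ATP, which closes the K-ATP channel; the membrane depolarises, voltage-gated sodium and calcium channels open, and calcium entry drives insulin exocytosis, after which potassium channels restore the resting potential. The K-ATP channel is built from the pore subunit Kir6.2 (Kcnj11) and the sulfonylurea receptor SUR1 (Abcc8). Cacna1c and Cacna1d encode the pores of the L-type calcium channels Cav1.2 and Cav1.3. Scn3a, Scn8a and Scn9a encode the sodium channels Nav1.3, Nav1.6 and Nav1.7. Trpm5 encodes a cation channel opened by intracellular calcium, and Kcnma1 the large-conductance calcium-activated potassium channel. Alpha cells secrete glucagon and delta cells somatostatin with much of the same set of channels.

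Tet2 and Tet3 oxidise methylated cytosine in CpG dinucleotides, so the CpGs of the promoters are of interest for a comparison that turns on Pdx1 cre, although methylation was not analysed here. RefSeq promoter sequence on GRCm38.p6 was at hand for 6 of the 9 genes. Trpm5 and Scn9a, higher with than without Pdx1 cre in at least 1 class, and Kcnma1, lower, are shown as the 250 bases before the RefSeq transcription start, read 5′ to 3′ on the gene's strand, with each CG in capitals.
Trpm5: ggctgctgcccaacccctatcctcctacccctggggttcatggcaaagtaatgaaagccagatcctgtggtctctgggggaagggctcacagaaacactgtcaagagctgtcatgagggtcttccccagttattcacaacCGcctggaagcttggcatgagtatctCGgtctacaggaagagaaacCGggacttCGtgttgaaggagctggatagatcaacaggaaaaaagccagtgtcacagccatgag
Scn9a: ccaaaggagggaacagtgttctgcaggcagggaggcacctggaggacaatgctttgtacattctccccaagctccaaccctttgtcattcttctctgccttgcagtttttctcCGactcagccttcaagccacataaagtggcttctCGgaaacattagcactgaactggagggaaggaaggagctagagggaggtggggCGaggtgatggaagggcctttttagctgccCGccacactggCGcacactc
Kcnma1: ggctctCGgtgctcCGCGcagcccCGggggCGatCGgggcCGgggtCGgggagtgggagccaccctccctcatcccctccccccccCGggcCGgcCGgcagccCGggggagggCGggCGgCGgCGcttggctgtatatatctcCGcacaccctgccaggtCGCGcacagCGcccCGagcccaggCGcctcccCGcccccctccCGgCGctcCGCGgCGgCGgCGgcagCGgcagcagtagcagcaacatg
The Trpm5 stretch lies at chr7:143094643-143094892 on the minus strand and holds 4 CpGs, and 62.2% of 32851 promoters of the same length hold at least as many. That of Scn9a, at chr2:66634963-66635212 on the minus strand, holds 5 CpGs, a number reached by 55.6% of promoters. The Kcnma1 stretch, at chr14:24004206-24004455 on the minus strand, holds 31 CpGs, which 5.19% of promoters reach, against a median of 6 over all promoters. It precedes a RefSeq start that lies inside the annotated gene span given next, downstream of that span's own start. Cacna1c and Scn8a, lower with Pdx1 cre in alpha-like cells, have several RefSeq starts and are not shown. Their stretches hold 2, 48 and 5 CpGs for Cacna1c and 30 and 9 CpGs for Scn8a. The sequences differ in CpG content, and nothing about methylation or control follows from that count.

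The genes themselves lie on 5 chromosomes of GRCm38 in the GENCODE vM21 annotation, and all are protein coding. Kcnj11 (chromosome 7, 46093953 to 46100764) and Abcc8 (chromosome 7, 46104523 to 46180033) are neighbours on the minus strand with 3758 bases between them. Trpm5 lies elsewhere on chromosome 7 (143069153 to 143094642), Scn3a (65457118 to 65567627) and Scn9a (66480080 to 66634962) on chromosome 2, Cacna1c (118587240 to 119196418) on chromosome 6, Scn8a (100869858 to 101045938) on chromosome 15, and Cacna1d (30039939 to 30491455) and Kcnma1 (23289431 to 24014491) on chromosome 14. Exons of Cacna1d overlap those of Chdh over 589 bases, Trpm5 those of Tssc4 over 220 bases, Scn9a those of the antisense gene Gm13629 over 180 bases, and Kcnma1 those of 4930519K11Rik over 1016 bases, all on the opposite strand. The sources used here do not say if the counting was stranded, so reads of these pairs may not be separated.

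Each library was clustered together with the others and clusters were named from marker lists, without using the 9 genes. Beta-like cells numbered 2739 in the Cre-positive, 3271 in the Cre-negative, 5974 in the IHG offspring and 10643 in the control offspring library, and alpha-like cells 2367, 1031, 2008 and 1276 in the same order of libraries. Delta-like cells numbered 950, 510, 1614 and 1255, and this name rests on Sst, Hhex, Rbp4 and, in 3 libraries, Ghsr, since Bche and Cckbr were under 20 CPM (UMIs per 1000000 UMIs of the class) in all 4. The name is a narrow one: delta markers scored 2.65 and 2.91 in the 2 delta-like clusters against 2.24 and 2.70 for PP markers (mean over the list of the log2 ratio to the median cluster), with Pyy among the 10 leading genes of both and Ppy among those of one. The beta name of Cre-negative cells also depended on the clustering. With that library clustered on its own, 2130 cells were named beta. A cluster of 931 cells led by Dlk1 and Car15 stayed unnamed, where PP markers scored 1.40 and beta markers 1.05. In bulk sums of this kind, fewer expressing cells and less RNA per cell cannot be told apart. The libraries of a contrast mostly filled different clusters: 72.5% of Cre-positive beta-like cells lay in cluster 7 and 78.6% of Cre-negative ones in cluster 3, where cluster 7 was led by the metallothionein stress genes Mt2 and Mt1 and cluster 3 by Dlk1 and Car15, and 96.9% of Cre-positive alpha-like cells lay in cluster 1 while 74.1% of Cre-negative ones lay in cluster 14. Of delta-like cells, 96.3% of Cre-positive ones lay in cluster 5 and 96.5% of Cre-negative ones in cluster 9. In the offspring contrast 46.9% of IHG beta-like cells lay in cluster 2 and 57.8% of control ones in cluster 0, 58.5% of IHG alpha-like cells in cluster 11 and 96.4% of control ones in cluster 1, and 67.9% of IHG delta-like cells in cluster 9 and 90.2% of control ones in cluster 5. The Cre-negative library stood apart from the other 3 across the transcriptome, holding the highest or lowest of the 4 levels for 76.7% of genes in beta-like, 84.0% in alpha-like and 73.1% in delta-like cells. Between 58 and 246 cell barcodes were shared by a pair of libraries. In beta-like cells Tet2 had 33.3 CPM in the Cre-positive and 46.5 CPM in the Cre-negative library, and Tet3 26.6 and 34.4 CPM in that order, but the deleted exons are not named in the labels, and 3′ tags outside them check nothing about recombination.

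In beta-like cells Cre-positive levels of Kcnj11, Scn3a and Kcnma1 were at least 1.5-fold lower than Cre-negative levels and that of Trpm5 was at least 1.5-fold higher, so 3 of 9 genes were lower and 1 was higher. Of all 6465 genes with 20 CPM or more in 1 of the 2 libraries, 19.8% were lower and 6.87% higher by the same rule, so neither count is read as a result about the members. In alpha-like cells 4 of 8 measured members were lower (Cacna1c, Scn3a, Scn8a, Kcnma1) beside 37.9% of all genes, and 1 was higher (Scn9a) beside 5.6% of all genes. Among delta-like cells 1 of 7 was lower (Kcnj11) beside 14.5% and 1 was higher (Scn9a) beside 9.41%. The median log2 ratio over all genes was itself -0.22 in beta-like, -0.46 in alpha-like and -0.15 in delta-like cells, and the medians of the measured members were -0.53, -0.60 and -0.32 in that order of classes. With median-of-ratios scaling, which takes out most of that shift, all 4 lower calls in alpha-like cells and the lower call of Kcnj11 in delta-like cells ended, while the 4 calls in beta-like cells and the higher calls of Scn9a held. In beta-like cells the Cre-negative library held the highest or lowest of the 4 levels for 9 of 9 members, in alpha-like cells for 9 of 9 and in delta-like cells for 8 of 9. The shares of all genes were 76.7%, 84.0% and 73.1% in that order of classes.

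**Figure D1:**
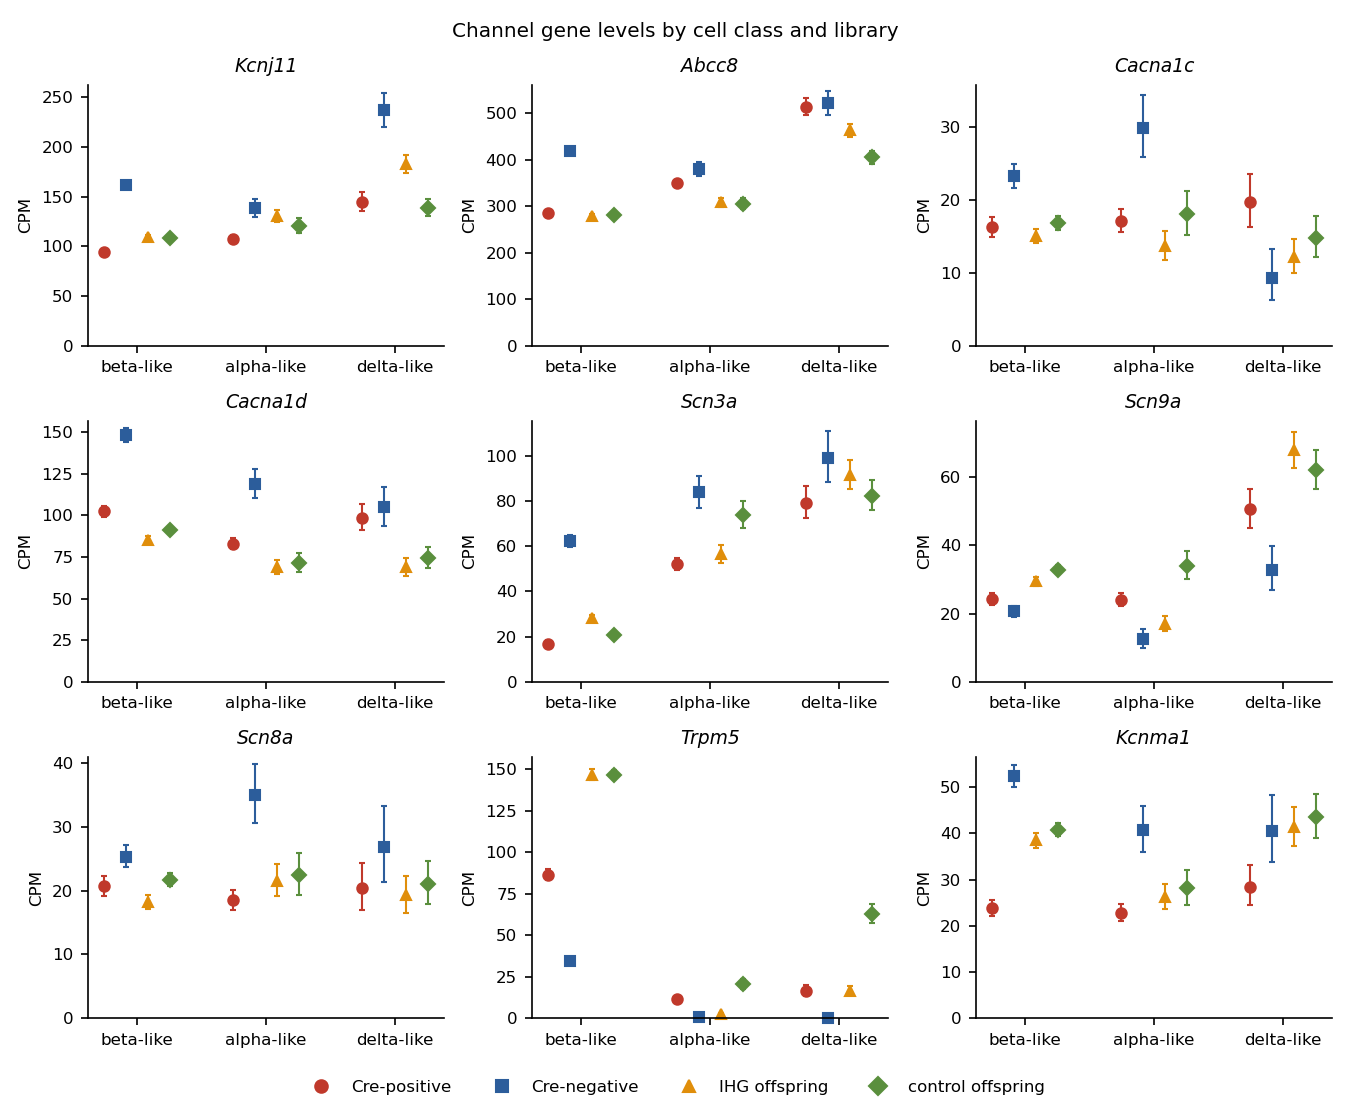
Levels of each channel gene (vertical axis, UMIs per 1000000 UMIs of the class, CPM) in beta-, alpha- and delta-like cells (horizontal axis) of the 4 libraries, 1 point per library with an exact Poisson 95% interval that covers counting error only. The Cre-negative squares are the highest of the 4 points for 7 genes and the lowest for 2 in beta-like cells. Of 6541 genes there, 62.5% were likewise highest and 14.2% lowest in that library. Trpm5 of the Cre-negative library has 34.2 CPM in beta-like, 0.768 CPM in alpha-like and 0 CPM in delta-like cells.

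Both subunit genes of the K-ATP channel were well detected in all 3 classes. Kcnj11 had 94.4 CPM in Cre-positive, 162.0 CPM in Cre-negative, 109.1 CPM in IHG offspring and 108.1 CPM in control offspring beta-like cells. The Cre-negative library was the high one, and the other 3 lay between 94.4 and 109.1 CPM. The Cre-positive level was 1.72-fold lower than the Cre-negative level (95% interval 1.64 to 1.79, counting error only) and 1.15-fold lower than that of control offspring (1.10 to 1.19). Abcc8 had 284.8 CPM in Cre-positive, 419.2 CPM in Cre-negative, 279.7 CPM in IHG offspring and 281.4 CPM in control offspring beta-like cells. Its Cre-positive level was 1.47-fold lower than the Cre-negative one (1.43 to 1.51), just short of the 1.5-fold rule, while the ratio of Cre-positive to control offspring was 1.01 (0.99 to 1.04). Thus both subunit genes were high in Cre-negative beta-like cells and near one another in the other 3 libraries.

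In delta-like cells Kcnj11 had 144.7 CPM in the Cre-positive and 237.2 CPM in the Cre-negative library, a 1.64-fold lower level (1.48 to 1.81). In delta cells taken by their leading hormone, somatostatin holding at least 80% of the hormone UMIs of a cell, it was 1.42-fold lower (1.26 to 1.61) and no longer past the rule. Kcnj11 had 182.6 CPM in IHG offspring against 139.0 CPM in control offspring delta-like cells. Abcc8 there had 514.0 CPM in Cre-positive, 522.7 CPM in Cre-negative, 463.6 CPM in IHG offspring and 405.1 CPM in control offspring cells, so it did not follow Kcnj11 in the first contrast. In each of the 4 libraries both genes were higher in delta-like than in beta-like and in alpha-like cells. The delta-like level exceeded the beta-like level of the same library by 1.29- to 1.67-fold for Kcnj11 and 1.247- to 1.80-fold for Abcc8. Beta-like and alpha-like cells were not ordered the same way in all libraries, since the alpha-like level was higher in 3 of 4 for each gene. Alpha-like Kcnj11 levels were 107.4 CPM in Cre-positive, 138.8 CPM in Cre-negative, 131.0 CPM in IHG offspring and 120.5 CPM in control offspring cells, with no ratio past 1.5-fold in either contrast. Alpha-like Abcc8 had 349.9 CPM in Cre-positive, 379.6 CPM in Cre-negative, 308.4 CPM in IHG offspring and 305.9 CPM in control offspring cells.

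The L-type calcium channel genes showed the same library pattern in beta-like cells. Cacna1d had 102.5 CPM in Cre-positive, 148.4 CPM in Cre-negative, 85.0 CPM in IHG offspring and 91.2 CPM in control offspring beta-like cells. The Cre-negative level stood above the other 3, and the Cre-positive level was 1.45-fold lower than it (1.39 to 1.51), yet 1.12-fold higher than that of control offspring (1.08 to 1.17). Cacna1d was higher in beta-like than in alpha-like cells in 4 of 4 libraries, by 1.23- to 1.28-fold, and higher than in delta-like cells in 4 of 4, by 1.04- to 1.42-fold. Cacna1c was low, with 16.3 CPM in Cre-positive, 23.3 CPM in Cre-negative, 15.05 CPM in IHG offspring and 16.8 CPM in control offspring beta-like cells. In alpha-like cells Cacna1c had 17.1 CPM in the Cre-positive and 29.9 CPM in the Cre-negative library, a 1.75-fold lower level (1.47 to 2.08). That ratio fell short of 1.5-fold, at 1.46-fold lower (1.13 to 1.86), when alpha cells were taken by glucagon as leading hormone. Delta-like Cacna1c was under 20 CPM in all 4 libraries. There the Cre contrast ran the other way, with 19.7 CPM in Cre-positive and 9.27 CPM in Cre-negative cells. The ratio was 2.13 (1.41 to 3.31) on 119 and 29 UMIs. In delta cells taken by leading hormone the levels were 20.4 and 9.11 CPM in that order, a ratio of 2.24 (1.37 to 3.74) on 48 and 27 UMIs.

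The 3 sodium channel genes differed from one another in where they were expressed. Scn3a had 16.9 CPM in Cre-positive, 62.2 CPM in Cre-negative, 28.3 CPM in IHG offspring and 20.6 CPM in control offspring beta-like cells. The Cre-negative level was the highest by far, and the Cre-positive level was 3.68-fold lower than it (3.35 to 4.04). Against control offspring the Cre-positive level was 1.22-fold lower (1.10 to 1.34), while Cre-negative cells were 3.02-fold higher than control offspring cells (2.83 to 3.23). In delta-like cells Scn3a had 79.2 CPM in Cre-positive, 99.1 CPM in Cre-negative, 91.5 CPM in IHG offspring and 82.4 CPM in control offspring cells, a narrow range above every beta-like value. Alpha-like levels were 52.1, 83.8, 56.4 and 73.8 CPM in that order of libraries, again above the beta-like level of the same library in 4 of 4. The Cre-positive alpha-like level was 1.61-fold lower than the Cre-negative one (1.46 to 1.78), and 1.28-fold lower (1.10 to 1.49) in cells taken by leading hormone.

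Scn9a ran the other way, with the lowest class level in the Cre-negative library for beta-, alpha- and delta-like cells. In delta-like cells, where it was highest in each library, it had 50.6 CPM in Cre-positive, 32.9 CPM in Cre-negative, 67.8 CPM in IHG offspring and 62.0 CPM in control offspring cells. The Cre-positive delta-like level was 1.54-fold higher than the Cre-negative one (1.22 to 1.94). Alpha-like Scn9a had 24.1 CPM in Cre-positive, 12.4 CPM in Cre-negative, 17.0 CPM in IHG offspring and 34.0 CPM in control offspring cells, which made Cre-positive cells 1.94-fold higher than Cre-negative cells (1.54 to 2.47). Taken by leading hormone, the ratio was 2.30 in alpha cells (1.61 to 3.39) and 2.28 in delta cells (1.75 to 2.97). Set against control offspring instead, Cre-positive Scn9a was lower in alpha-like cells by 1.41-fold (1.22 to 1.63) and in delta-like cells by 1.23-fold (1.06 to 1.42). Beta-like Scn9a lay at 24.3 CPM in Cre-positive, 20.6 CPM in Cre-negative, 29.4 CPM in IHG offspring and 32.9 CPM in control offspring cells, within 1.5-fold in both contrasts. Within cluster 0 the order turned, with 23.9 CPM in Cre-positive and 41.2 CPM in Cre-negative cells. Scn8a was low throughout, from 18.2 to 25.4 CPM in beta-like cells. Its only difference past 1.5-fold was in alpha-like cells, with 18.5 CPM in the Cre-positive library set against 35.0 CPM in the Cre-negative one, 1.89-fold lower (1.61 to 2.22), and 1.71-fold lower by leading hormone (1.34 to 2.16).

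**Figure D2:**
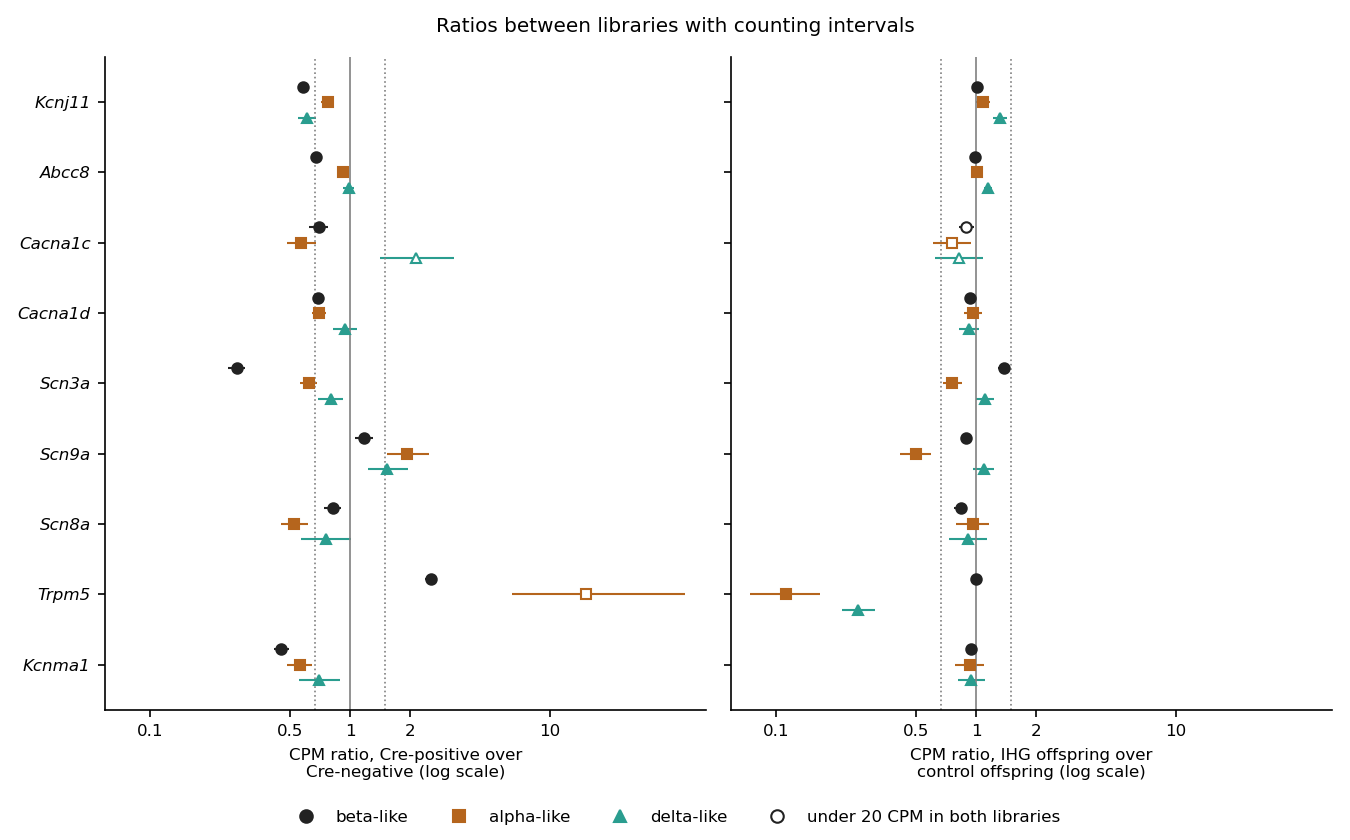
Ratios of CPM (horizontal axis, log scale) for the 9 genes (vertical axis) in beta-, alpha- and delta-like cells, Cre-positive over Cre-negative on the left and IHG offspring over control offspring on the right, with exact conditional binomial 95% intervals that cover counting error only. Dotted lines mark 1.5-fold, open symbols are under 20 CPM in both libraries, and Trpm5 in delta-like cells is not drawn on the left because the Cre-negative library had 0 UMIs; beta-like points on the right lie between 0.84 and 1.38.

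Trpm5 was the gene most closely tied to beta-like cells. It had 86.5 CPM in Cre-positive, 34.2 CPM in Cre-negative, 146.9 CPM in IHG offspring and 146.8 CPM in control offspring beta-like cells. Cre-positive cells were 2.53-fold higher than Cre-negative cells (2.36 to 2.71), and 1.70-fold lower than control offspring cells (1.63 to 1.77). Both floxed libraries therefore lay below both offspring libraries. With each cell thinned to 3000 UMIs, 20.1% of Cre-positive, 7.73% of Cre-negative, 32.2% of IHG offspring and 33.7% of control offspring beta-like cells had a Trpm5 UMI, with 155, 154, 99 and 362 shallower cells left out. Unthinned, the shares were 50.02%, 22.8%, 63.9% and 55.0% in that order. Endothelial-like cells, which should lack the gene, had a Trpm5 UMI in 0.852% of Cre-positive, 0 of 205 Cre-negative (exact upper limit 1.78%), 12.2% of IHG offspring and 3.87% of control offspring cells, unthinned. Within cluster 0, the beta-like cluster that the Cre-positive and Cre-negative libraries shared most, Trpm5 had 113.0 CPM in 344 Cre-positive cells and 79.4 CPM in 331 Cre-negative cells, a log2 ratio of 0.51 that fell short of 1.5-fold.

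Outside beta-like cells, Trpm5 moved with insulin transcripts. Delta-like clusters had 16.4 CPM in the Cre-positive, 0 CPM in the Cre-negative, 16.2 CPM in the IHG offspring and 62.7 CPM in the control offspring library. Ins1 and Ins2 made up 6.55%, 0.951%, 5.07% and 13.5% of the UMIs of those cells in the same order of libraries. In alpha-like clusters Trpm5 had 11.6, 0.768, 2.31 and 20.4 CPM in that order, beside insulin shares of 4.61%, 0.351%, 0.408% and 4.48%. The other beta markers moved alongside: leaving out Ins1, Ins2 and Iapp, all 7 remaining beta markers reached 20 CPM in Cre-positive and control offspring alpha-like cells (798 and 974 CPM summed) and 3 of 7 did in Cre-negative and IHG offspring ones (231 and 225 CPM summed). In delta-like cells 7, 5, 7 and 7 of the 7 reached 20 CPM, with 1113 CPM summed in Cre-positive, 263 CPM in Cre-negative, 908 CPM in IHG offspring and 2674 CPM in control offspring cells, and none was at 0. In alpha cells taken by leading hormone, with insulin at 0.254%, 0.202%, 0.213% and 0.610% of UMIs, Trpm5 was 0.688 CPM in Cre-positive, 0.599 CPM in Cre-negative, 1.53 CPM in IHG offspring and 2.91 CPM in control offspring cells. In delta cells taken the same way it was 1.28 CPM in Cre-positive, 0 CPM in Cre-negative, 3.34 CPM in IHG offspring and 3.45 CPM in control offspring cells. The 8.85-fold lower Trpm5 of IHG offspring than of control offspring in alpha-like clusters (6.03 to 13.4) and the 3.87-fold lower level in delta-like clusters (3.21 to 4.68) were not seen at that size in cells taken by leading hormone. By leading hormone the ratio of IHG to control offspring was 0.53 in alpha cells (0.24 to 1.19) and 0.97 in delta cells (0.35 to 3.32), on 12 and 5 control offspring UMIs. The Cre-negative delta-like count of 0 among 3128235 UMIs has an exact Poisson upper limit of 1.18 CPM, and 3 UMIs there would be 0.959 CPM.

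**Figure D3:**
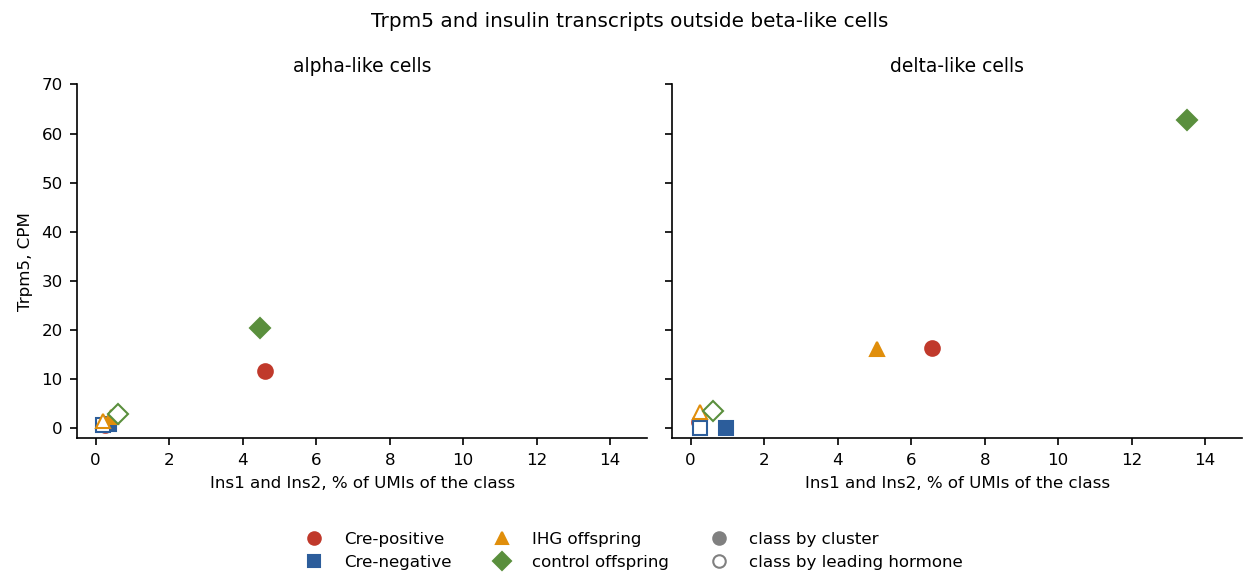
Trpm5 level (vertical axis, CPM) against the share of UMIs from Ins1 and Ins2 (horizontal axis, percent) in alpha-like and delta-like cells of the 4 libraries, 1 point per library. Filled symbols are cells named by cluster and open symbols cells taken by their leading hormone; the open symbols all lie at or under 3.45 CPM, while the filled control offspring delta-like point is at 62.7 CPM and 13.5% insulin.

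Kcnma1 alone of the 9 had a Cre-positive beta-like level at least 1.5-fold under both the Cre-negative and the control offspring level. It had 23.9 CPM in Cre-positive, 52.4 CPM in Cre-negative, 38.6 CPM in IHG offspring and 40.8 CPM in control offspring beta-like cells. The Cre-positive level was the lowest of the 4, 2.20-fold lower than the Cre-negative level (2.02 to 2.39) and 1.71-fold lower than that of control offspring (1.58 to 1.85). Alpha-like Kcnma1 had 22.8 CPM in Cre-positive, 40.7 CPM in Cre-negative, 26.2 CPM in IHG offspring and 28.1 CPM in control offspring cells, 1.78-fold lower with than without Pdx1 cre in that contrast (1.54 to 2.06) and 1.53-fold lower by leading hormone (1.23 to 1.90). The alpha-like call held under 6 of 8 alternatives, with a log2 ratio of -0.43 where the difference was smallest. Delta-like levels were 28.5, 40.6, 41.4 and 43.6 CPM in that order, 1.42-fold lower than the Cre-negative level in the Cre-positive library (1.12 to 1.80) and 1.53-fold lower than in control offspring cells (1.27 to 1.85). The Cre-positive library thus had the lowest Kcnma1 in all 3 classes.

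Levels within single beta-like clusters were compared because the libraries filled different ones. In cluster 0 Kcnj11 had 76.7 CPM in Cre-positive and 126.4 CPM in Cre-negative cells, Scn3a had 16.5 and 41.7 CPM, and Kcnma1 had 19.4 and 55.7 CPM in that order. In cluster 6, with 82 Cre-positive and 125 Cre-negative cells, Kcnj11 had 101.6 and 135.8 CPM, Scn3a 14.5 and 50.8 CPM, and Kcnma1 22.8 and 58.1 CPM, with 7 Cre-positive Scn3a UMIs behind the lowest of these. Levels of these 3 genes were thus lower in Cre-positive cells in clusters 0 and 6 too, although Kcnj11 in cluster 6 fell short of 1.5-fold. Scn3a was also high in the few offspring cells of cluster 3, where most Cre-negative beta-like cells lay, with 89.4 CPM in 250 IHG offspring cells and 57.9 CPM in 115 control offspring cells. Trpm5 in that cluster was 25.6 CPM in Cre-negative, 48.5 CPM in IHG offspring and 88.4 CPM in control offspring cells. Library and cluster cannot be told apart for the remaining beta-like cells of the Cre contrast. Between the Cre-positive and Cre-negative beta-like cells the alpha marker list also moved, with 4 and 5 of 9 markers at 20 CPM or more and 3722 and 1825 CPM summed, as did the delta list, with 2 and 2 of 6 markers and 779 and 4378 CPM summed. Irs4 was at 0 in both, and Cckbr too. The PP list summed to 1099 CPM in Cre-positive and 2355 CPM in Cre-negative beta-like cells, with 4 of 5 markers at 20 CPM or more in each. Without the beta-like cells that had over 1% of their UMIs from other hormones, 6.46% of Cre-positive and 12.01% of Cre-negative ones, 3 members were still lower and 1 higher by the rule.

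**Figure D4:**
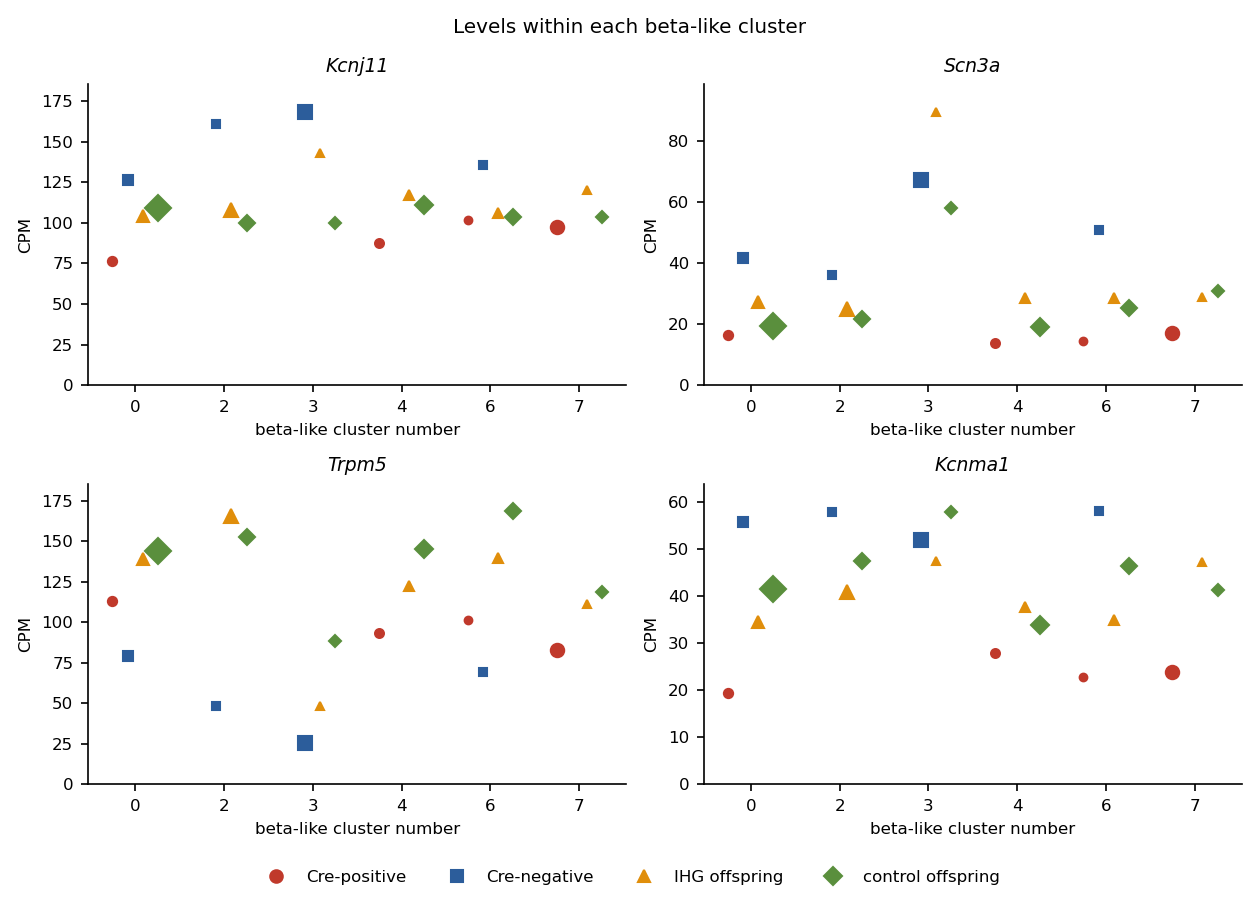
Levels (vertical axis, CPM) of Kcnj11, Scn3a, Trpm5 and Kcnma1 within each beta-like cluster (horizontal axis, cluster number), 1 point per library with 50 or more cells in the cluster, symbol size growing with the number of cells. Kcnj11, Scn3a and Kcnma1 of Cre-positive cells lie below those of Cre-negative cells in clusters 0 and 6, where both libraries had 50 or more cells, and Trpm5 lies above.

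IHG offspring and control offspring differed little in the 9 genes in beta-like cells. None of the 8 measured members passed 1.5-fold in either direction, beside 0.544% of all 5517 genes higher and 0.689% lower. The largest ratio was that of Scn3a, 28.3 CPM in IHG offspring against 20.6 CPM in control offspring cells, a ratio of 1.38 (1.28 to 1.48). Kcnj11, Abcc8 and Trpm5 had ratios of 1.01 (0.98 to 1.04), 0.99 (0.97 to 1.01) and 1.00 (0.97 to 1.03). In alpha-like cells Scn9a was 2.00-fold lower in IHG offspring (17.0 CPM) than in control offspring (34.0 CPM; 1.67 to 2.39), and 1.66-fold lower by leading hormone (1.31 to 2.09). The delta markers, whose class had the highest Scn9a, summed to 6782 CPM in IHG offspring and 26203 CPM in control offspring alpha-like cells, with 2 and 3 of 6 markers at 20 CPM or more and Cckbr at 0 in both. In the Cre contrast they summed to 25770 CPM in Cre-positive and 2478 CPM in Cre-negative alpha-like cells, with 3 and 2 of 6 at that level and Ghsr and Cckbr at 0 in the Cre-negative ones. Their part in the Scn9a ratios beyond the values by leading hormone was not tested. With Trpm5 that made 2 of 8 measured members lower beside 8.47% of all genes and 0 higher beside 1.37%. By leading hormone alpha Cacna1c also passed, with 13.8 CPM in IHG offspring and 23.1 CPM in control offspring cells, 1.67-fold lower (1.29 to 2.16), while in alpha-like cells it was under 20 CPM in both libraries. Among delta-like cells only Trpm5 passed the rule, which made 1 of 8 lower beside 4.24% of all genes and 0 higher beside 3.47%. The delta-like Kcnj11 ratio of 1.31 (1.21 to 1.42) became 1.08 (0.94 to 1.24) in cells taken by leading hormone. The delta ratios of Abcc8, Scn3a and Scn9a turned, from 1.14, 1.11 and 1.09 to 0.92, 0.81 and 0.76 in that order.

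Endothelial-like cells also had UMIs of Kcnj11. Thinning to 3000 UMIs kept only cells of at least that depth, which left out most endothelial-like cells of each library. Among the endothelial-like cells kept, Kcnj11 was seen in 2.19% of Cre-positive, 1.56% of Cre-negative, 11.9% of IHG offspring and 3.49% of control offspring ones. In beta-like cells the shares were 25.3%, 37.5%, 27.3% and 27.5% in the same order of libraries. Unthinned, they were 58.4%, 70.2%, 57.8% and 48.9% in beta-like and 1.88%, 0.976%, 14.1% and 3.95% in endothelial-like cells. The beta-like shares exceeded the endothelial-like ones in all 4 libraries. Endothelial-like cells of IHG offspring carried 12.4% of their UMIs from Ins1 and Ins2, against 3.78% in control offspring, and Trpm5 was 49.5 and 18.8 CPM there in that order. The median depth was 2054.5, 2109, 2668.5 and 2450 UMIs in endothelial-like cells and 10133, 9527, 8924 and 5837 UMIs in beta-like cells, from Cre-positive through Cre-negative and IHG offspring to control offspring.

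A wider set of excitability genes held 166 genes of 8 roles beyond the 9. In beta-like cells 16 of 36 measured genes were at least 1.5-fold lower with than without Pdx1 cre and 1 was higher, with a median log2 ratio of -0.43, beside 19.8% of all genes lower, 6.87% higher and an all-gene median of -0.22. All 4 measured genes of the sodium and leak role were lower, and they encode the NALCN sodium leak channel, which sets resting depolarisation, and its auxiliary subunits. Nalcn had 10.6 CPM in Cre-positive and 33.8 CPM in Cre-negative beta-like cells, 3.21-fold lower (2.84 to 3.62). Unc80, a scaffold of the channel, had 86.1 and 232.1 CPM in that order, 2.70-fold lower (2.58 to 2.82). Unc79 was 1.99-fold lower (1.77 to 2.23) and Fam155a, whose product joins the channel outside the membrane, 1.79-fold lower (1.69 to 1.90). Cre-positive levels of the wider set were not compared with control offspring. The Cre-negative library held the highest or lowest of the 4 levels for 76.7% of all genes in beta-like cells. In alpha-like cells Nalcn was 2.23-fold, Unc79 2.30-fold, Unc80 2.48-fold and Fam155a 1.73-fold lower. There 37.9% of all genes were lower and the all-gene median log2 ratio was -0.46, a shift for which these folds were not rescaled. All 4 stayed past 1.5-fold in alpha cells taken by leading hormone. In delta-like cells, where 14.5% of all genes were lower, Nalcn was 1.65-fold, Unc79 1.84-fold and Unc80 1.68-fold lower. In delta cells taken by leading hormone they were only 1.28-fold, 1.37-fold and 1.46-fold lower in that order. Fam155a was not past the rule in delta-like cells.

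Among the cation channels, Trpm3 was 2.85-fold, Hcn4, a pacemaker channel gene, 2.45-fold, Trpc4 2.35-fold and Trpm7 1.57-fold lower in Cre-positive beta-like cells. Of the chloride genes, Clcn5 was 2.61-fold and Clcn3 1.54-fold lower. Slc8a1, the sodium-calcium exchanger NCX1, was 2.07-fold and the sodium pump subunit gene Atp1b2 2.06-fold lower. Kcnab3, a potassium channel beta subunit gene, was 1.81-fold lower and Cacna2d1, an auxiliary calcium channel subunit gene, 1.53-fold lower. Cacnb3, the calcium channel beta-3 subunit gene, ran the other way, with 56.1 CPM in the Cre-positive and 32.5 CPM in the Cre-negative library in beta-like cells, a ratio of 1.73 (1.60 to 1.86). It was also higher in alpha-like cells, with a ratio of 1.95 (1.71 to 2.23), and in delta-like cells, with a ratio of 2.75 (2.20 to 3.48).

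**Figure D5:**
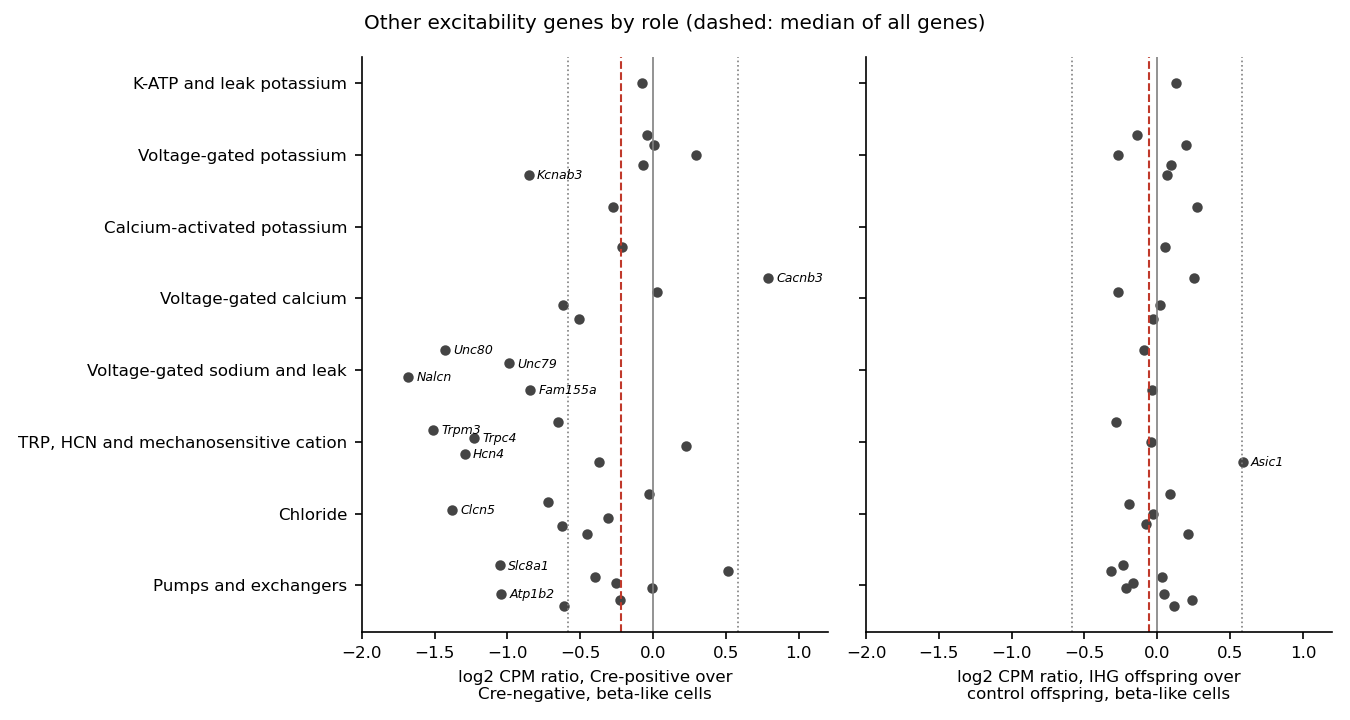
Log2 CPM ratios in beta-like cells (horizontal axis) of excitability genes beyond the 9 members with 20 CPM or more in 1 library, by role (vertical axis), Cre-positive over Cre-negative on the left and IHG offspring over control offspring on the right, 1 point per gene. Grey dotted lines mark 1.5-fold and the dashed line the median of all genes (-0.22 on the left, -0.06 on the right); the 4 genes of the sodium and leak role lie left of the lower dotted line in the Cre contrast.

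In alpha-like cells 16 of 38 measured genes of the wider set were lower and 3 higher in the Cre contrast, beside 37.9% of all genes lower and 5.6% higher. By leading hormone 10 and 2 of them stayed past 1.5-fold, and 8 and 1 with 20 CPM or more in 1 library. The largest differences were in Gabra4 (10.7-fold lower, 7.77 to 14.9) and Kcnip4 (3.85-fold lower, 3.13 to 4.73), and in Fxyd3 (ratio 11.4, 7.28 to 19.1) and Cacnb3. Fxyd3 had 33.3 CPM in Cre-positive and 2.92 CPM in Cre-negative alpha-like cells, and a ratio of 4.97 (2.64 to 10.5) by leading hormone. Gabra4 was then 6.14-fold lower (3.97 to 9.65), and both genes were under 20 CPM in both libraries. In delta-like cells 19 of 47 were lower and 2 higher, beside 14.5% of all genes lower and 9.41% higher, and 12 and 2 of them stayed past the rule by leading hormone. They were led by Slc8a2 (3.07-fold lower, 2.26 to 4.22) and Kcna5 (2.81-fold lower, 2.32 to 3.42), and by Cacnb3 and Cacnb1 (ratio 1.66, 1.198 to 2.34). The median log2 ratio was -0.47 in alpha-like and -0.34 in delta-like cells, beside all-gene medians of -0.46 and -0.15 in that order.

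Between the offspring libraries, 1 of 30 measured wider-list genes passed 1.5-fold upward in beta-like cells and 0 passed it downward. The log2 ratios of these 30 genes had a median of -0.01. Few genes of any kind passed there, 0.544% of all 5517 upward and 0.689% downward, and the all-gene median log2 ratio was -0.06. Neither count is therefore read as a result about the wider set. The gene that passed was Asic1, an acid-sensing cation channel gene. It had 51.1 CPM in IHG offspring and 34.0 CPM in control offspring cells, a ratio of 1.502 (1.42 to 1.58) at the edge of the rule. In alpha-like cells, beside 1.37% of all genes higher and 8.47% lower, 2 of 34 were higher, Kcnip3 (ratio 1.83, 1.53 to 2.20) and the leak potassium channel gene Kcnk3 (1.65, 1.54 to 1.76), and 6 were lower, led by Kcnip1 (6.87-fold lower, 4.89 to 9.83) and Atp1b2 (3.66-fold lower, 3.00 to 4.49). By leading hormone the alpha-cell ratio of Kcnk3 was 1.36 (1.255 to 1.48) and that of Kcnip3 1.41 (1.14 to 1.77), so neither passed the rule. Kcnip1 was then 1.70-fold lower (0.79 to 3.50) on 23 IHG offspring and 13 control offspring UMIs. Atp1b2 was 2.59-fold lower (1.90 to 3.52) but under 20 CPM in both libraries, and 1 of the 6 lower genes stayed past the rule. In delta-like cells 8 of 46 were higher and 0 lower, beside 3.47% of all genes higher and 4.24% lower, led by Cacng4 (ratio 2.12, 1.69 to 2.66) and Kcna5 (2.03, 1.64 to 2.52). When delta cells were taken by leading hormone, 1 of those 8 stayed past 1.5-fold, Kcna5 with a ratio of 1.51 (1.10 to 2.12). The delta-like clusters of IHG and control offspring held 5.07% and 13.5% insulin UMIs.

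Across the 3 classes of the 4 libraries, 12 points that share libraries and depth, the members could be set beside genes of like pattern, chosen as those with the highest Pearson correlation of log2(CPM + 5) among 7809 genes. Trpm5 was most like Ntrk2, Prss53 and Ucn3 (r = 0.985 each), of which Ucn3 encodes urocortin 3 and is itself a beta marker used to name cells. Cacna1d was most like Snap25 (r = 0.99), a SNARE protein gene of exocytosis, followed by Ndrg3 and Usp33, and Scn9a most like the potassium channel gene Kcnb2 (r = 0.93), followed by Phf1 and Rbfox3. Abcc8 was nearest Gm14964, Plxnb1 and Dgkz (r = 0.97 to 0.98), Kcnj11 nearest Cdc42bpa, Cpne1 and Thap2 (r = 0.94 to 0.95), and Scn3a nearest Tenm4, Klhdc8b and Ankrd50 (r = 0.96 to 0.97). Cacna1c was nearest Commd6, Cers6 and Myc (r = 0.91 to 0.92), Scn8a nearest Ubp1, Tia1 and Sbno1 (r = 0.96 to 0.97), and Kcnma1 nearest Ube2q1, Tmf1 and Abcb10 (r = 0.93 to 0.94). Among the members themselves the highest correlation was that of Kcnj11 with Abcc8 (r = 0.85), and the lowest that of Scn3a with Trpm5 (r = -0.73).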

How the data were processed

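The deposited values are counts of UMIs per gene and barcode, unnormalized, from a SeekOne MM single-cell 3′ kit, per the labels' protocols. The submitters' processing notes name Cell Ranger and Seurat, without version, and mm10. The libraries held 10145 Cre-positive, 6421 Cre-negative, 12684 IHG offspring and 16459 control offspring barcodes with medians of 5809, 7373, 6958 and 5334 UMIs. Barcodes needed at least 500 genes and no more than 20% mitochondrial UMIs. Doublets were removed per library with Scrublet (scanpy 1.11.5), or as the top 6% of scores in the Cre-negative and control offspring libraries, where its threshold marked 0.101% and 0% of cells. This removed 1.67%, 6.01%, 4.39% and 6.49% of cells in the order above and left 9427 Cre-positive, 5572 Cre-negative, 11414 IHG offspring and 14730 control offspring cells. Leiden clusters (2000 variable genes without the 9 members, 30 components, 15 neighbours, resolution 1) were named from marker lists by a rule settled after clusters were seen.

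UMIs were summed per class and library and scaled to CPM. Totals of the beta-, alpha- and delta-like classes were 3128235 UMIs or more. The smallest total by leading hormone was 1450462 UMIs, in control offspring delta cells. That of endothelial-like cells was 560744 UMIs, in the Cre-negative library. Ratios have exact conditional binomial (Clopper-Pearson) 95% intervals, levels exact Poisson intervals and shares of cells exact binomial ones; all cover counting error only. Against 0 UMIs no fold is given. Genes with 20 CPM or more in 1 of 2 libraries were counted at 1.5-fold, with no test. The ratio and the rule were run on Poisson counts simulated from the Cre-negative class profiles with known folds. The simulation held no shift between libraries, clusters or cell make-up, so it covers counting error only. The members and the gene and marker lists were chosen with earlier results of these data known. Named beyond the members were all wider-list genes past the rule in beta-like cells (at most 5 per role and direction), the 2 most extreme each way in alpha- and delta-like cells, and the 3 genes most like each member. Some genes that this rule names are not reported here. Alternatives were other doublet, class, scaling, depth and filter choices. Tools were Python 3.11.15, leidenalg 0.10.2, igraph 0.11.9, scikit-learn 1.9.0, pandas 2.3.3, scipy 1.17.1 and numpy 2.4.6.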

Additional observations from a re-analysis of the deposited data

Results flagged for a closer look

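Scn3a stood out because its difference between the offspring libraries ran in opposite directions in 2 cell classes. IHG offspring were higher than control offspring in beta-like cells, with a ratio of 1.38 (1.28 to 1.48, counting error only), and lower in alpha-like cells, with a ratio of 0.76 (0.69 to 0.85). The levels were 28.3 CPM in IHG offspring and 20.6 CPM in control offspring beta-like cells, and 56.4 and 73.8 CPM in alpha-like cells in that order. By leading hormone the ratios were 1.34 in beta cells and 0.73 in alpha cells. In delta cells the direction depended on how the class was taken. The ratio was 1.11 (1.00 to 1.24) in delta-like cells and 0.81 (0.69 to 0.96) by leading hormone. With 1 library per group the difference between the classes was not tested.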

How the results depend on the processing

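No paired analysis was possible because each group had 1 library and no test was run. In the Cre contrast of beta-like cells, Kcnj11, Scn3a and Kcnma1 stayed at least 1.5-fold lower under all 9 alternatives of cell filter, class, scaling and depth (log2 -0.79 to -0.60, -1.92 to -1.33 and -1.52 to -0.96), and Trpm5 at least 1.5-fold higher under 8 of 9 (log2 0.51 to 1.52). In the most shared cluster Scn9a turned to -0.78, from 0.24, and Scn8a to 0.0077, from -0.29. With control offspring in place of Cre-negative as the library without Cre, the log2 ratios reversed to -0.76 for Trpm5 in beta-like cells and -0.50 and -0.30 for Scn9a in alpha- and delta-like cells. That of Kcnj11 in delta-like cells became 0.058 (-0.074 to 0.19), an interval that spans no difference. The 9 alternatives above all kept the Cre-negative library as the reference. Against control offspring, beta-like Kcnj11 and Scn3a fell short of 1.5-fold, with log2 ratios of -0.20 (-0.26 to -0.14) and -0.28 (-0.42 to -0.14). The cause was not tested. Of 8 such alternatives in alpha-like cells, the call held under 5 for Cacna1c, 4 for Scn3a, 7 for Scn8a, 6 for Kcnma1 and 8 for Scn9a. In delta-like cells it held under 5 for Kcnj11 and 5 for Scn9a.

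Counts in beta-like cells moved with the rule of size and the filter. Members higher in the Cre contrast numbered 0 in the most shared cluster, and members lower numbered 6 at a fold rule under 1.5, where 1 member was higher in the offspring contrast. Wider-list genes higher in the Cre contrast numbered 2 with each library clustered on its own, with median-of-ratios scaling and at the lower fold rule, 0 in the most shared cluster and at a fold rule of 2, 5 at a filter of 5 CPM and 18 with no filter. Those lower numbered 10, 8, 33 and 76 in the most shared cluster, at a fold rule of 2, at 5 CPM and with no filter. In the offspring contrast the 1 wider-list gene higher became 0 with no doublets removed, with libraries clustered on their own, with stricter cell filters, in the most shared cluster, without cells of other hormones and at a fold rule of 2, and 24 with no filter, with 1 lower at 5 CPM and 18 with no filter. Shares of all genes under these settings are not given here, so none of these counts is read as a result about the genes. Median-of-ratios scaling used log2 factors of -0.18, -0.40 and -0.14 in beta-, alpha- and delta-like cells of the Cre contrast, which are subtracted from the ratios.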
